A study of Mus musculus with 12 samples.

Results

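A set of 10 named genes of retinoid handling was followed across the 12 arrays. They are the retinol and retinal dehydrogenases Rdh5, Rdh8, Rdh10, Rdh11, Rdh12, Rdh13, Rdh14 and Dhrs3, the saturase Retsat and the extracellular carrier Rbp3. They are 10 of the 19902 genes for which the array holds a probe that names 1 gene, and each of the 10 has 1 such probe. They were chosen by name and not by their values. Each array was hybridised with RNA of cones sorted by fluorescence from C3H mice (C3H/HeNCrl, Pde6brd1, mouse model f-RD), in which the rd1 allele of the rod phosphodiesterase gene Pde6b makes rods degenerate and cones lose function later. All mice, controls included, carried this allele and had received an AAV under the retina as young animals, and in every group the mouse cone arrestin promoter (mCAR) drove the transgene. There were 4 arrays of mCAR-EGFP cones at 110 days and 4 at 220 days, each from 500 sorted cells, and 4 arrays of mCAR-eNpHR-EYFP cones at 165 days, each from 300 sorted cells. EGFP is a fluorescent control protein and eNpHR is a light-driven chloride pump, here fused to the fluorescent protein EYFP. The question posed by the design is how cones that carry the light sensor compare with control cones. The construct, the age and the number of sorted cells differ together between eNpHR-EYFP and EGFP arrays and cannot be told apart. Processing may differ with them, since the EGFP columns held 31 values fewer than the eNpHR-EYFP columns. The sources used here do not say whether all 12 arrays were normalized together. A difference in processing between these sets could not be told apart from one between constructs. The labels call the 4 arrays of a group biological replicates, and the sources used here do not say whether cells of several animals were pooled.

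Vision depends on a vitamin A derivative, retinal, which is bound to opsin in the cis form and is turned to the trans form by light. In photoreceptors, short-chain dehydrogenases such as Rdh8, Rdh12 and Rdh14 reduce retinal to retinol. Rbp3, also called interphotoreceptor retinoid-binding protein, is secreted by photoreceptors and carries retinoids between them, the pigment epithelium and Müller glia. In the pigment epithelium Rdh5 oxidises cis retinol back to retinal, and Rdh10 oxidises trans retinol, also as the first step to retinoic acid.

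The sort was checked against marker genes, and values here are log2 of the deposited linear intensity. Across arrays the median level was 2.72 to 2.83 in EGFP and 2.74 to 2.83 in eNpHR-EYFP samples, and the level of the 95th percentile was 6.84 to 7.08 and 7.44 to 7.54. Replicates correlated at 0.948 to 0.975 within groups. The cone marker Arr3, cone arrestin, was at 4.58, 8.92, 9.64 and 5.29 at 110 days, at 6.72, 8.16, 8.42 and 8.4 at 220 days and at 9.41, 9.56, 10.77 and 10.85 with eNpHR-EYFP (replicates 1 to 4). Replicates 1 and 4 at 110 days and replicate 1 at 220 days were thus the lowest EGFP arrays in cone arrestin, and the short-wave opsin Opn1sw was at 2.81, 4.43 and 6.63 on these 3 arrays and at 6.65 to 9.6 on the others. The mean of 13 cone markers was 4.4 to 6.99 at 110 days, 5.35 to 6.19 at 220 days and 6.33 to 7.88 with eNpHR-EYFP. The mean of 12 Müller glia markers was 4.98 to 5.81, 5.6 to 5.79 and 5.65 to 6.61, with glutamine synthetase, Glul, at 6.1 to 9.94 over all arrays. The mean of 13 pigment epithelium markers was 2.72 to 2.8, 2.6 to 2.88 and 2.79 to 2.85, with the isomerase Rpe65 at 1.49 to 2.1 on every array. The mean of 10 rod markers was 3.51 to 3.95, 3.47 to 3.74 and 3.64 to 4.12, with Gnat1 at 2.23 to 3 and Gngt1 at 8.37 to 10.65 over all arrays. Of all genes, 23% were called higher with eNpHR-EYFP and 10.1% lower (adjusted p under 0.05 in limma). Müller glia markers were called higher in 3 of 12 and rod markers in 3 of 10, with 1 rod marker lower. Of the other cell types, ganglion cell (4 of 7), microglia (5 of 11), horizontal cell (3 of 7) and amacrine cell markers (3 of 10) were called higher. So was 1 of 11 bipolar cell markers, with 2 bipolar and 1 horizontal cell marker lower. List means in EGFP and in eNpHR-EYFP samples were 2.91 to 3.14 and 3.36 to 3.64 for ganglion cells, 2.48 to 2.66 and 2.79 to 2.9 for microglia, and 3.44 to 3.79 and 3.78 to 4.56 for horizontal cells. They were 3.72 to 4.9 and 4.16 to 4.89 for amacrine cells and 4.63 to 5.58 and 4.73 to 5.41 for bipolar cells. The part of these lists in the results was not tested. In bulk RNA a change in the share of a cell type and a change in RNA per cell cannot be told apart.

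Promoter sequences are shown for Rbp3 and Rdh12, because the levels of these photoreceptor genes varied together between arrays, as the values given next show. Each run gives the 250 bases before the start site, from RefSeq on GRCm38.p6, and capitals mark TAATCC, the core motif bound by the photoreceptor homeobox protein Crx, on either strand. Rbp3 is at chr14:33953753-33954002 on the plus strand and Rdh12 at chr12:79208663-79208912 on the plus strand.
Rbp3: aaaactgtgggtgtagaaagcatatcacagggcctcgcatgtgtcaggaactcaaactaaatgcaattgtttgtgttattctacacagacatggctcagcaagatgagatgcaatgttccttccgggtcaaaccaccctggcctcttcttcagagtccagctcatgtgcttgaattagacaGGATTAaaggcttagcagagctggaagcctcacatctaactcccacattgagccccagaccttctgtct
Rdh12: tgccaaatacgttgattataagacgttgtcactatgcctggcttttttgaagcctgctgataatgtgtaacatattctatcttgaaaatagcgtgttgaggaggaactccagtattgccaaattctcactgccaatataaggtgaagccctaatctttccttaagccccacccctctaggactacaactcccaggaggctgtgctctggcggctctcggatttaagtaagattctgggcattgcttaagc
The Rbp3 window holds 1 match, on the minus strand, 69 bases before the start site, and the Rdh12 window holds none. Of the 10 genes, 8 matched the promoter table, with 11 start sites, and Rbp3 had the only match among them; Rdh10 and Rdh13 were not matched. Of all 32851 promoters in the table, 6.25% hold the motif. A match is a description of letters, and no match says only that they are not in this window.

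Cones with eNpHR-EYFP had higher levels of 4 of the 10 genes than EGFP cones: Rdh10, Dhrs3, Rdh5 and Rdh14, by 1.5 to 2.28 times. None of the 10 was lower, and 6 did not pass the threshold, an adjusted p of 0.05 in limma over all 34615 probes. Over all probes 18.7% were called higher and 9.25% lower, and over all genes, each by its brightest probe as for the 10, 23% and 10.1%, so that the count of the 10 called higher stands against a high background. The median difference of the 10 was 0.47 on the log2 scale, against 0.07 over all genes. Many of all genes are dim, while 9 of the 10 lie at or above the median level. Probes at or above that level had a median difference of 0.16, and 5100 of 17308 were called higher when fitted alone. With quantile normalization the share of higher among called probes was 51.5% in place of 66.8%, and 2 of the 10 genes, Rdh10 and Rdh5, were called higher. The part of separate processing of EGFP and eNpHR-EYFP arrays in this change was not tested. Between EGFP cones of 220 and 110 days none of the 10 was called, as 0% of all probes were.

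**Figure D1:**
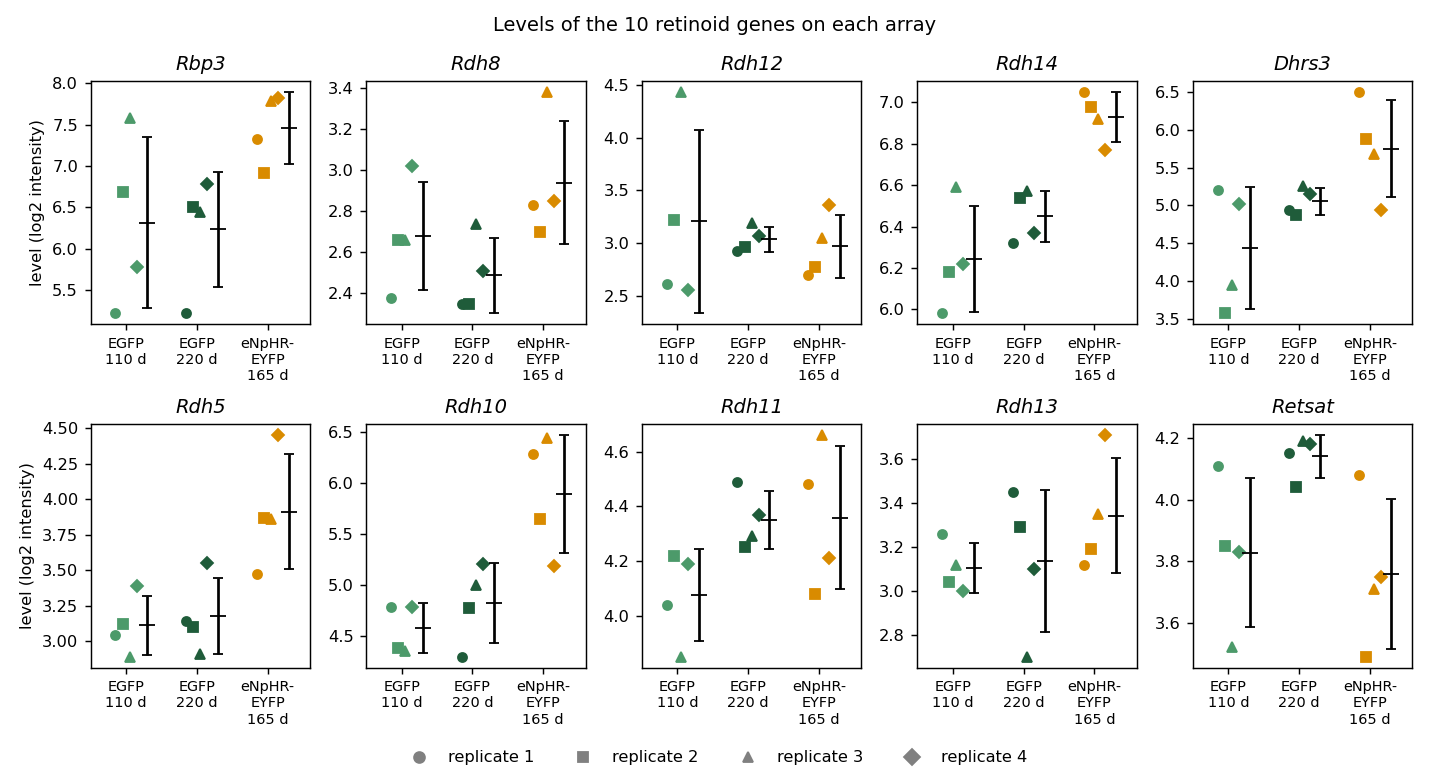
Level of each gene on each array (log2 intensity, with its own axis range per gene), in EGFP cones at 110 and 220 days and eNpHR-EYFP cones at 165 days; points are arrays, with the replicate by shape, and the bar is the mean ± SD of 4 arrays. Rdh14 alone has its 4 eNpHR-EYFP arrays higher than any EGFP array, and Rdh12 on replicate 3 at 110 days, at 4.43, lies above its other 11 arrays.

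Rbp3, the carrier, was at 5.22, 6.68, 7.58 and 5.78 in EGFP cones at 110 days, at 5.22, 6.5, 6.44 and 6.78 at 220 days and at 7.32, 6.91, 7.79 and 7.82 with eNpHR-EYFP. Replicate 3 at 110 days was the only EGFP array to reach the range of eNpHR-EYFP. Its means were 6.32 ± 1.03, 6.24 ± 0.69 and 7.46 ± 0.43 (SD, n = 4), and eNpHR-EYFP exceeded EGFP by 1.18 ± 0.41 on the log2 scale (SE; 95% confidence interval 0.28 to 2.09), with an adjusted p of 0.0521 in limma, so that Rbp3 did not pass. Without replicate 3 at 110 days the difference was 1.39 and its adjusted p 0.0124. With the mean of the cone markers as a covariate it was 0.09 (adjusted p 0.808), and with the 3 EGFP arrays of lowest Arr3 left out it was 0.61 (adjusted p 0.116).

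Rdh12, the photoreceptor retinal reductase mutated in a childhood form of retinal blindness, was at 2.61, 3.22, 4.43 and 2.56 at 110 days, at 2.93, 2.96, 3.19 and 3.07 at 220 days and at 2.7, 2.77, 3.05 and 3.36 with eNpHR-EYFP. The groups overlapped throughout, and 1 array at 110 days stood well above the rest. The difference between eNpHR-EYFP and EGFP cones was -0.15 ± 0.29 (SE; 95% confidence interval -0.79 to 0.49; adjusted p 0.752 in limma), and without replicate 3 at 110 days it was 0.05. The 13 cone markers had a median difference of 1.64 on the log2 scale in the same comparison, with 5 called higher and 1 lower.

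Within the 8 EGFP arrays both genes varied with the mean of the cone markers. For Rbp3 Pearson's r was 0.906 (exact permutation p 0.00169, adjusted 0.0169 over 20 relations) and Spearman's rank correlation 0.88 (exact permutation p 0.00635, adjusted 0.0635). For Rdh12 r was 0.826 (exact permutation p 0.00119, adjusted 0.0169) and the rank correlation 0.97 (exact permutation p 0.000496, adjusted 0.00992). Leaving out the 2 arrays farthest from the median of the cone markers, replicates 1 and 4 at 110 days, r was 0.969 for Rbp3 and 0.816 for Rdh12. Leaving out replicate 3 at 110 days, r was 0.867 and 0.955, and with the mean of each age removed it was 0.932 and 0.879. The 20 relations, of the 10 genes with the cone and the Müller glia markers, were chosen after the data were seen, all tests are two-sided, and the arrays share any variation in the RNA of the sort.

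With the cone marker mean as a covariate, Rdh12 was called lower with eNpHR-EYFP, a call that did not hold without replicate 3 at 110 days. Without the covariate the difference in Rdh12 was -0.15 (adjusted p 0.752 in limma). For Rbp3 no difference was detected with the covariate (0.09, given before). At cone marker means of 6.33, 6.79, 7.53 and 7.88 the eNpHR-EYFP arrays had Rbp3 at 6.91, 7.32, 7.79 and 7.82. At the same means they had Rdh12 at 2.77, 2.7, 3.05 and 3.36, while EGFP arrays with cone marker means of 6.19, 6.47 and 6.99 had Rdh12 at 3.07 or 3.19, at 3.22 and at 4.43. With the cone marker mean as a covariate, Rdh12 was lower in eNpHR-EYFP than in EGFP cones by 0.87 ± 0.2 on the log2 scale (a difference of -0.87, adjusted p 0.0137 in limma). Without replicate 3 at 110 days this difference was -0.47 ± 0.13 with an adjusted p of 0.0521 and did not pass. On the eNpHR-EYFP side 2 arrays have cone marker means above any EGFP array, so that part of this comparison lies outside the range of the EGFP arrays. The Rdh12 levels with eNpHR-EYFP, 2.7 to 3.36, are also close to the median level of these arrays, 2.74 to 2.83. The Müller glia markers ran opposite to Rdh12 over the 8 EGFP arrays, with r of -0.876 (exact permutation p 0.0283, adjusted 0.12) and a rank correlation of -0.524 (exact permutation p 0.197, adjusted 0.486). This rested on few arrays: r was -0.0443 without replicates 3 and 1 at 110 days, the 2 farthest from the median, and -0.334 without replicate 3 alone. With their mean as a covariate the difference between constructs in Rdh12 was 0.46 (adjusted p 0.238).

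**Figure D2:**
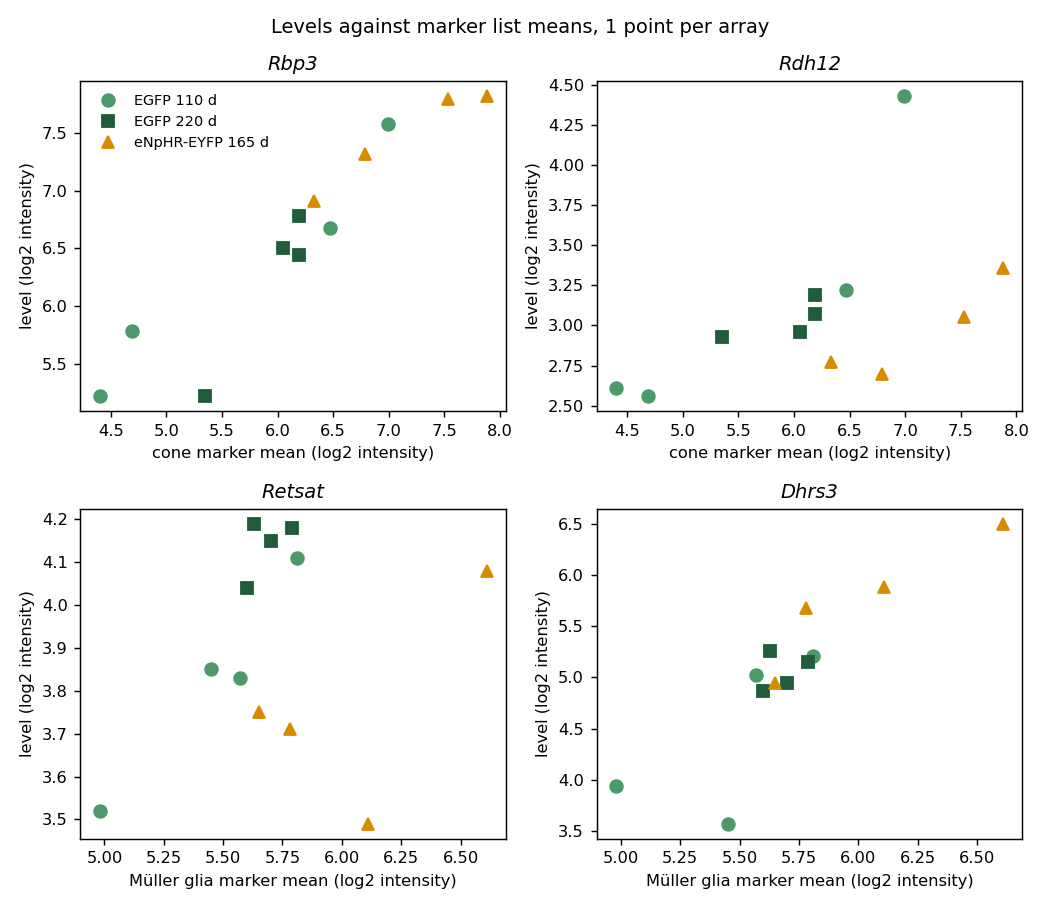
Levels of Rbp3 and Rdh12 against the mean of 13 cone markers, and of Retsat and Dhrs3 against the mean of 12 Müller glia markers, 1 point per array (all log2 intensity; EGFP at 110 days, EGFP at 220 days and eNpHR-EYFP at 165 days by colour and shape). Rbp3 follows 1 course over the 12 arrays, while the 4 eNpHR-EYFP arrays have Rdh12 at 2.7 to 3.36 at cone marker means of 6.33 to 7.88.

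Rdh14, a retinal reductase of photoreceptors, was at 5.98, 6.18, 6.59 and 6.22 at 110 days, at 6.32, 6.54, 6.57 and 6.37 at 220 days and at 7.05, 6.98, 6.92 and 6.77 with eNpHR-EYFP. It was the only gene of the 10 whose 4 eNpHR-EYFP arrays were higher than every EGFP array, which held for 11.2% of all probes and 14.2% of all genes, and none had them all below, as 5.3% of probes did. The difference was 0.58 ± 0.11 (SE; 95% confidence interval 0.34 to 0.83; adjusted p 0.00246 in limma), or 1.5-fold. It was 0.46 with the cone markers as a covariate (adjusted p 0.042) and 0.66 with the Müller glia markers (adjusted p 0.00944). With quantile normalization it was 0.11 and did not pass (adjusted p 0.524).

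Dhrs3, a retinal reductase first described in cones that also limits retinoic acid formation, was at 5.21, 3.57, 3.94 and 5.02 at 110 days, at 4.94, 4.87, 5.26 and 5.15 at 220 days and at 6.5, 5.88, 5.68 and 4.94 with eNpHR-EYFP. With eNpHR-EYFP, replicates 1 to 3 lay above the EGFP arrays and replicate 4 lay among them. The difference was 1.01 ± 0.33 (SE; 95% confidence interval 0.28 to 1.73; adjusted p 0.0405 in limma), or 2.01-fold, and the call depended on single arrays. It did not pass without replicate 2 or 3 at 110 days, any 1 array at 220 days, or eNpHR-EYFP replicate 1, 2 or 3, with adjusted p from 0.0526 to 0.136 and a difference of 0.76 without eNpHR-EYFP replicate 1. Its relation to the Müller glia markers did not pass adjustment, and the part of glial RNA in its difference was not tested. Over the 8 EGFP arrays r with their mean was 0.748 (exact permutation p 0.0362, adjusted 0.12) and the rank correlation 0.738 (exact permutation p 0.0458, adjusted 0.229), with r of 0.758 without the 2 arrays farthest from the median. With their mean as a covariate the difference between constructs was 0.31 (adjusted p 0.487), and with the cone marker mean in its place 1.74 (adjusted p 0.00211). The Müller glia fit was added after the data were seen. In both fits some eNpHR-EYFP arrays have marker means above any EGFP array.

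Rdh8, the reductase of trans retinal in outer segments, was at 2.38, 2.66, 2.66 and 3.02 at 110 days, at 2.35, 2.35, 2.74 and 2.51 at 220 days and at 2.83, 2.7, 3.38 and 2.85 with eNpHR-EYFP. The groups overlapped, and the difference between constructs was 0.36 ± 0.15 (SE; 95% confidence interval 0.03 to 0.68; adjusted p 0.0961 in limma). No background value was used, so whether such low levels stand above background is unknown, and differences of dim probes can be understated.

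Of the dehydrogenases best known from pigment epithelium, Rdh10 had a difference between constructs close to those of Rbp3 and Dhrs3. It was at 4.79, 4.38, 4.35 and 4.79 at 110 days, at 4.3, 4.78, 5 and 5.21 at 220 days and at 6.28, 5.65, 6.44 and 5.19 with eNpHR-EYFP. With eNpHR-EYFP, replicate 4 lay just below 1 EGFP array and the others lay above every EGFP array. The difference was 1.19 ± 0.24 (SE; 95% confidence interval 0.67 to 1.71; adjusted p 0.00318 in limma), or 2.28-fold. It passed against EGFP cones of 110 days alone (1.31, adjusted p 0.00516) and of 220 days alone (1.07, adjusted p 0.0172). It was 0.9 with the Müller glia markers as a covariate (adjusted p 0.0472), 1.33 with the cone markers (adjusted p 0.014) and 0.83 with quantile normalization (adjusted p 0.0213). With the cone markers as a covariate and without replicate 3 at 110 days it was 1.26 and did not pass (adjusted p 0.0722).

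Rdh5, the cis retinol dehydrogenase, was at 3.04, 3.12, 2.89 and 3.39 at 110 days, at 3.14, 3.1, 2.91 and 3.55 at 220 days and at 3.47, 3.87, 3.86 and 4.45 with eNpHR-EYFP. Only eNpHR-EYFP replicate 1 lay within the range of the EGFP arrays. The difference was 0.77 ± 0.17 (SE; 95% confidence interval 0.39 to 1.15; adjusted p 0.00637 in limma), or 1.7-fold, and 0.69 with quantile normalization (adjusted p 0.0121). With the cone markers as a covariate it was 0.74 (adjusted p 0.0491), and 0.54 without replicate 3 at 110 days as well (adjusted p 0.25). Of the pigment epithelium markers, 2 of 13 were called higher and 0 lower, against 23% of all genes called higher. The 2, named after their values were seen, were Rgr (0.41, adjusted p 0.0422 in limma) and Best1 (0.34, adjusted p 0.0154). The list median was 0 on the log2 scale, and Rpe65 was at 1.81 to 2 with eNpHR-EYFP and 1.49 to 2.1 with EGFP. The part of pigment epithelium RNA in the Rdh5 difference was not tested.

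Rdh11, a broadly expressed retinal reductase, was at 4.04, 4.22, 3.85 and 4.19 at 110 days, at 4.49, 4.25, 4.29 and 4.37 at 220 days and at 4.48, 4.08, 4.66 and 4.21 with eNpHR-EYFP. It did not differ between constructs beyond its error (0.15 ± 0.12, SE; 95% confidence interval -0.11 to 0.4; adjusted p 0.395 in limma), and the sign turned with quantile normalization (-0.06). Rdh13, a mitochondrial member of the family, was at 3.26, 3.04, 3.12 and 3 at 110 days, at 3.45, 3.29, 2.7 and 3.1 at 220 days and at 3.12, 3.19, 3.35 and 3.71 with eNpHR-EYFP. Its groups overlapped, with a difference of 0.22 ± 0.15 (SE; 95% confidence interval -0.1 to 0.54; adjusted p 0.293).

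Retsat, which saturates trans retinol to dihydroretinol, was at 4.11, 3.85, 3.52 and 3.83 at 110 days, at 4.15, 4.04, 4.19 and 4.18 at 220 days and at 4.08, 3.49, 3.71 and 3.75 with eNpHR-EYFP. It was the other gene with a negative difference between constructs, -0.23 ± 0.12 (SE; 95% confidence interval -0.49 to 0.04; adjusted p 0.199 in limma). Over the 8 EGFP arrays it varied with the Müller glia markers, with r of 0.919 (exact permutation p 0.00317, adjusted 0.0212) and a rank correlation of 0.762 (exact permutation p 0.0368, adjusted 0.229). Leaving out the 2 arrays farthest from the median, replicates 3 and 1 at 110 days, r was 0.81. With the Müller glia marker mean as a covariate, a fit added after the data were seen, Retsat was lower in eNpHR-EYFP cones. The difference in this fit was -0.44, with an adjusted p of 0.0291 in limma. In every fit with this covariate, eNpHR-EYFP replicates 1 and 2, at means of 6.61 and 6.11, lie outside the EGFP range, which ends at 5.81. None of the other relations with either marker list had an adjusted p for r below 0.12.

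**Figure D3:**
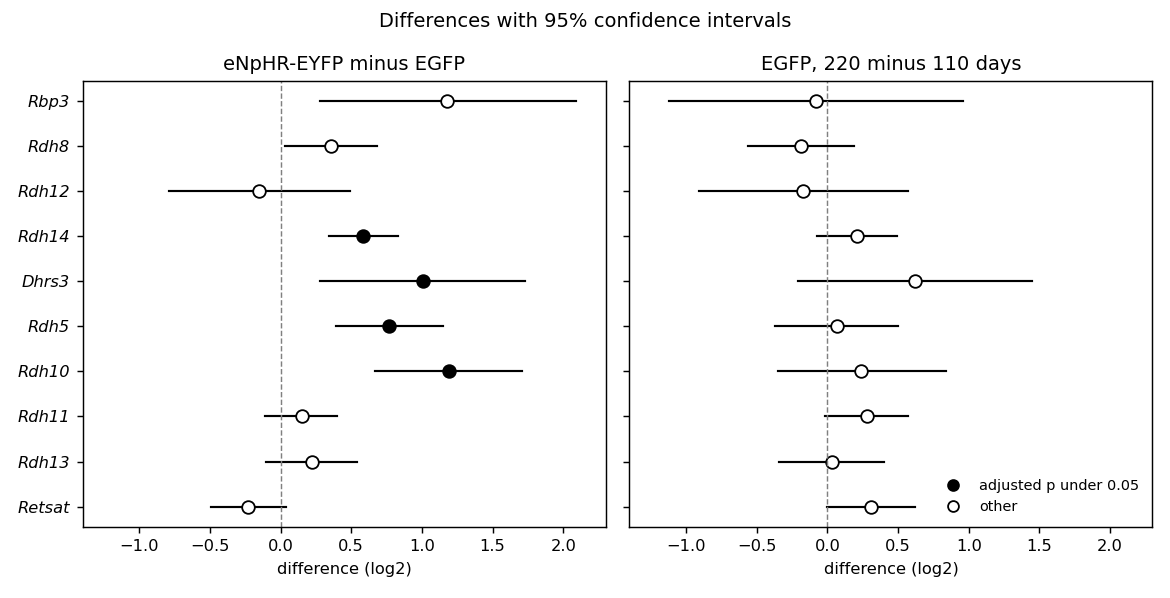
Difference of each gene on the log2 scale, eNpHR-EYFP minus EGFP (mean over both ages) on the left and EGFP at 220 minus 110 days on the right; lines are 95% confidence intervals from limma and filled points have an adjusted p under 0.05. Rdh14, Dhrs3, Rdh5 and Rdh10 are filled on the left and none on the right.

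Set against each EGFP age alone, 4 of the 10 genes were called higher against 110 days, where 15.7% of all probes were, and 3 against 220 days, where 14.4% were. The 3 were Rdh5 (0.74, adjusted p 0.0225), Rdh10 and Rdh14 (0.48, adjusted p 0.0211), while Dhrs3 differed by 1.32 from 110 days (adjusted p 0.0269) and by 0.69 from 220 days (adjusted p 0.228). These comparisons share the eNpHR-EYFP arrays and are not independent of each other. Their shares are over probes and were not computed over genes by brightest probe. Against both EGFP ages together the gene share was 23% and the probe share 18.7%, so probe shares may understate the background.

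Between EGFP cones of 220 and 110 days the differences of the 10 genes ran from -0.19 for Rdh8 to 0.62 for Dhrs3, with a median of 0.14 against 0 over all genes. Dhrs3 had a 95% confidence interval of -0.21 to 1.45 (adjusted p 0.812 in limma), and its arrays at 220 days lay within the range at 110 days but for 1. This difference was 0.33 without replicate 2 at 110 days, 0.29 with the Müller glia marker mean as a covariate and 1.34 with the 3 EGFP arrays of lowest Arr3 left out. Rdh11 was the only gene whose arrays at 220 days, from 4.25 to 4.49, all lay above those at 110 days, from 3.85 to 4.22, which held in either direction for 3.82% of all probes; its difference was 0.28 ± 0.14 (SE; 95% confidence interval -0.02 to 0.57; adjusted p 0.752). Retsat differed by 0.31 ± 0.14 (SE), with an unadjusted limma p of 0.0486, the only one of the 10 under 0.05, and an adjusted p of 0.741. Over all probes 2331 had an unadjusted limma p under 0.05 and the smallest adjusted p was 0.0973. Rbp3 differed by -0.08 with a 95% confidence interval of -1.12 to 0.96 and Rdh12 by -0.17 with one of -0.91 to 0.57, so that changes of up to about that size in either direction were not resolved by 4 arrays per age.

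Once the mean of each group was taken off, the 10 genes varied together in part. Over the 12 arrays the correlation was 0.82 between Rdh12 and Rbp3 and 0.61 between Rdh14 and Rbp3. Dhrs3 correlated with Rdh10 at 0.65 and with Retsat at 0.54, and with Rdh12 at -0.67 and Rbp3 at -0.59. At 110 days replicates 2 and 3, highest in Rdh12 and Rbp3, were lowest in Dhrs3 (3.57 and 3.94). With eNpHR-EYFP replicate 4, highest in both, was lowest in Dhrs3 (4.94). At 220 days this did not hold: Rdh12 was at 2.93, 2.96, 3.19 and 3.07 and Dhrs3 at 4.94, 4.87, 5.26 and 5.15. The correlations are descriptions over arrays that share any difference in cell content. Rdh12 stood farthest from its group mean on replicate 3 at 110 days (4.43, group mean 3.2). The correlations between members were not computed without that array.

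By the same measure the genes most like Rbp3 were Lurap1l (0.976), Csn3 (0.973), Gsdme (0.971), Prph2 (0.967), which encodes a structural protein of photoreceptor outer segments, and Mogat1 (0.966). Those most like Rdh12 were Tmed10 (0.973), Pgc (0.958), Eef1akmt2 (0.954), Rnf125 (0.954) and Lypla1 (0.952). For Rdh8 they were Pkdrej (0.94), Fezf1 (0.923), Ubxn10 (0.915), Gk5 (0.899) and Plbd1 (0.88). The values are Pearson's r over 12 arrays with group means removed, the highest among all genes, and large values arise by such a choice. For Rdh12, replicate 3 at 110 days is farthest from its group mean and weighs most in r. No such value was computed without that array.

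Other genes of the pathway were taken from lists. Of 17 other retinoid cycle genes, 3 were called higher with eNpHR-EYFP and 0 lower, which is not above the 23% of all genes called higher, with a median difference of 0.11. The 3, named after their values were seen, were Scarb1, Dgat1 and Rgr; with quantile normalization 0 were called higher, and 1 without replicate 1 at 110 days, replicate 2 at 220 days or eNpHR-EYFP replicate 1 or 3. The outer segment transporter Abca4 differed by 0.22 ± 0.16 (SE; adjusted p 0.356 in limma) and the glial carrier Rlbp1 by 0.88 ± 0.51 (SE; adjusted p 0.233). The pigment epithelium acyltransferase Lrat was at 2.46 to 3.12 with EGFP and 2.49 to 2.98 with eNpHR-EYFP, and neither it nor Rpe65 was called.

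Of 13 other retinol and retinal dehydrogenases, 4 were called higher and 1 lower, with a median of 0.17, against 23% and 10.1% of all genes; 2 were called higher without eNpHR-EYFP replicate 3 or 4. The genes described next were taken because their groups did not overlap, and the other called genes, Rdh7 and Rdh19, named after their values were seen, overlapped. Adh5, a broadly expressed alcohol dehydrogenase that acts on formaldehyde conjugates, was at 6.52 to 7 on the 8 EGFP arrays and at 7.99 to 8.31 with eNpHR-EYFP, a difference of 1.31 ± 0.11 (SE; adjusted p 1.5e-05 in limma). Dhrs4, a peroxisomal retinal reductase, differed by 0.76 ± 0.13 (adjusted p 0.00137), and Adh7, a retinol-oxidising alcohol dehydrogenase, by -0.31 ± 0.08 (adjusted p 0.00864). With quantile normalization each was called in the same direction, but Adh5 at 0.8. Adh7 did not pass with the Müller glia marker mean as a covariate (-0.28, adjusted p 0.0737), nor with the cone marker mean and without replicate 3 at 110 days (adjusted p 0.0873). It was at 2.41 to 2.7 with EGFP and 2.14 to 2.32 with eNpHR-EYFP, below the median level of every array. Whether such levels stand above background is unknown.

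Of 16 retinoic acid genes, 5 were called higher and 0 lower, with a median of 0.23, against 23% of all genes called higher. With quantile normalization 5 were called higher, with the Müller glia marker mean as a covariate 3, and with the cone marker mean and without replicate 3 at 110 days 3. Again those described were taken because their groups did not overlap, and the other called gene, Crabp2, likewise named after its values were seen, overlapped. The retinoid receptors among them were Rarg, at 2.29 to 2.68 with EGFP and 3.41 to 3.58 with eNpHR-EYFP (0.99 ± 0.09, SE; adjusted p 2.1e-05 in limma), Rxrb (0.66 ± 0.09; adjusted p 0.000276) and Rxrg (1.64 ± 0.35; adjusted p 0.00472), the last also a cone marker, whose difference with the cone marker mean as a covariate was 0.91 (adjusted p 0.0759). Aldh1a3, which makes retinoic acid from retinal, differed by 0.46 ± 0.1 (adjusted p 0.00383), and by 0.35 with the Müller glia covariate (adjusted p 0.0551). Crx, the photoreceptor homeobox gene, was at 2.91 to 4.05 with EGFP and 4.72 to 5.5 with eNpHR-EYFP (1.67 ± 0.22, SE; adjusted p 0.000233), and Arr3 differed by 2.63 ± 0.86 (SE; adjusted p 0.0407). Arr3 did not pass without replicate 4 at 110 days, any 1 array at 220 days or any 1 eNpHR-EYFP array, with adjusted p from 0.0538 to 0.107, nor with quantile normalization (adjusted p 0.0861).

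**Figure D4:**
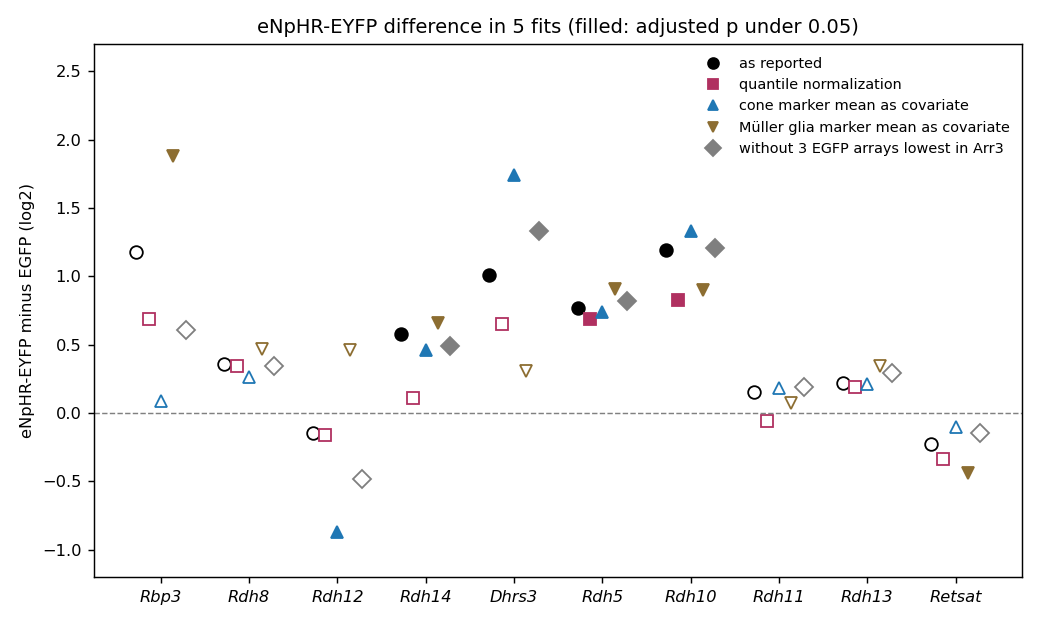
Difference of each gene between eNpHR-EYFP and EGFP cones (log2) in the fit reported and in 4 alternative fits; filled symbols have an adjusted p under 0.05. Rdh10 and Rdh5 are filled in all 5 fits, Rbp3 ranges from 0.09 to 1.88, and Rdh12 is filled only with the cone marker mean as a covariate, at -0.87.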

How the data were processed

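Values in the deposited table are linear intensities, 34760 probes on each of 12 Affymetrix arrays; per the submitters' processing notes the authors used RMA and affy. RMA subtracts background and equalises the arrays it is given. The sources used here do not say whether all 12 were given together, and no detection value was used. Log2 was taken without a pseudocount. The EGFP columns held 31 values fewer than the eNpHR-EYFP columns, so from line 13588 they stood beside wrong probes. They were realigned by a hidden Markov model of the mean profiles, which can lose lines only; 21031 lines moved, 114 were left out and the median correlation between constructs went from 0.421 to 0.944. The 10 genes were placed with a posterior of 1, each at least 156 lines from a break: 5 stood in place (Rdh5, Rdh10, Rdh11, Rdh12, Rdh14) and 5 were moved by 4 to 18 lines.

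One limma model (3.58.1, R 4.3.3) of 3 groups was fitted to 34615 probes, with Benjamini-Hochberg adjustment over all and a threshold of 0.05; it was tested on simulated data. Genes named are the 10, up to 4 called genes per other retinoid list with groups apart, fixed marker and cycle genes, and the 5 genes most like Rdh12, Rbp3 and Rdh8. Genes and lists were chosen with earlier results of these data known. The alternatives are a variance prior, filters, normalizations, array weights, alignments, a block, marker means as covariates and left-out arrays. The number of arrays limits the precision.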

Additional observations from a re-analysis of the deposited data

How the results depend on the processing

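Differences between constructs of Rdh10, Rdh5 and Rdh14 were positive under every alternative run, from 0.83 to 1.42, from 0.54 to 0.92 and from 0.11 to 0.69 on the log2 scale. Members called higher numbered 2 with quantile normalization, 2 with the cone marker mean as a covariate without replicate 3 at 110 days (a fit added after the data were seen) and 3 to 4 without any 1 array. With the replicate block they numbered 5, since Rbp3 passed (1.18, adjusted p 0.0288), and 9258 probes were called in place of 9659; the block changed no other member's call. Same-numbered arrays deviated together at -0.039 to 0.143, with no reference value to judge this by, so whether the numbers pair the samples is not known. Rbp3 also passed with a filter at the median level, array weights, gene means over probes and the Müller glia covariate (adjusted p 0.0376, 0.0437, 0.0326 and 0.012). Members called lower were 1 with the cone marker covariate (Rdh12) and 1 with the Müller glia covariate (Retsat), a fit added after the data were seen. Probes called were 2517 on the lines in place alone, where fewer probes were tested, and 3900 with the cone covariate without replicate 3 at 110 days; the cause was not tested. Between ages 1 probe was called with only the groups compared, with the cone covariate or without the 3 arrays lowest in Arr3, 2 with gene means over probes and 0 to 1 without any 1 array; none was a member.

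Signs turned only for differences that did not pass as reported. Between constructs Rdh11 was -0.06 with quantile normalization, Rdh12 0.46 with the Müller glia covariate and -0.28 to 0.05 without any 1 array, Rlbp1, itself in that list, -0.44 with the Müller glia covariate, and Abca4 -0.01 with the cone covariate and -0.08 without replicate 3 at 110 days as well. Between ages Rbp3 was 0.06 with array weights, 0.26 with the Müller glia covariate and -0.44 to 0.34 without any 1 array. Rdh12 was 0.13 with the Müller glia covariate and -0.38 to 0.24 without any 1 array, Rdh13 -0.05 without the 3 arrays lowest in Arr3 and -0.07 to 0.18 without any 1 array, and Rdh5 -0.1 with the cone covariate without replicate 3 at 110 days and -0.06 to 0.16 without any 1 array. Dim signals, with no background value used, limit what can be said of Rdh8, Rdh12, Rdh13 and Rdh5, and of Adh7 among the other genes.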
